A study of Mus musculus with 18 samples.

Results

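The genes described here are 7 regulators of preadipocytes and brown fat, namely Prdm16, Zfp423, Ebf1, Ebf2, Ucp1, Cebpb and Cebpd, among 49939 annotated mouse genes. A CpG site was counted with a gene when it lay in the gene body or within 5 kb of either end on GRCm38 and had at least 10 reads in each pool of a tissue. These windows held 2439 of 1876099 such sites in gonadal adipose tissue, 1950 of 1569349 in hypothalamus and 2033 of 1628817 in liver. Per gene in adipose tissue, there were 952 sites for Prdm16, 597 for Zfp423, 344 for Ebf2, 247 for Ebf1, 211 for Cebpb, 67 for Cebpd and 21 for Ucp1.

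The study asked how exposure to bisphenol A (BPA), a plasticizer monomer, before birth relates to the methylome of mouse offspring. The BPA groups were male C57BL/6 offspring, 3 weeks old, of dams gavaged daily from day 1 to day 20 after conception with 5 mg per kg of BPA dissolved in corn oil. The control groups were male C57BL/6 offspring of the same age whose dams received the corn oil alone. All dams ate a chow low in oestrogenic isoflavones and all cages and bottles were free of polycarbonate. Each tissue had 3 BPA and 3 control samples, 18 in all. The BPA offspring came from 4 litters and the control offspring from 3, and which litter gave which sample was not known here.

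Methylation was read by reduced representation bisulfite sequencing, which cuts DNA at CCGG with the enzyme MspI and so covers CpG-rich fragments rather than whole genes. The deposited tables join the 3 samples of a group into 1 pool, so each level is a value of pooled reads by the authors and carries no spread between animals. The pool numbered 1 was read as BPA and the pool numbered 0 as control from the order of the group names in a label. No label states the numbering, and if it were reversed each direction between BPA and control below would turn. The median depth over all listed sites was 164 reads in the BPA pool and 144 in the control pool of adipose tissue, 98 and 93 in hypothalamus, and 127 and 136 in liver. All intervals are 95% intervals that treat each read as independent, and they cover counting error only, not spread between animals. Amplified reads are not independent molecules, so the intervals can be too narrow. A pool mixes all cells of a tissue, so a change in cell makeup and a change within cells cannot be told apart.

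Prdm16 is a transcriptional coregulator that directs precursor cells to the brown and beige fat fate, and Ebf2 is a transcription factor that marks brown preadipocytes and recruits activators to thermogenic genes. Zfp423 is a zinc finger factor of committed white preadipocytes, and Ebf1, a relative of Ebf2, takes part in both adipocyte and B-cell development. Cebpb and Cebpd encode basic leucine zipper factors that are induced early in adipogenesis, and Ucp1 encodes the mitochondrial uncoupling protein through which brown fat makes heat. In white depots such as gonadal fat, Ucp1 is normally little expressed.

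The start-site windows of Ucp1, Cebpb and Prdm16 are shown because they were the promoter windows of these genes with the most measured CpG sites, and the levels below refer to them. Each runs from 250 bases before to 50 bases after a RefSeq start site on GRCm38.p6, 5′ to 3′ on the strand of the gene. Capitals mark the CpGs that were tested in at least 1 tissue. The Ucp1 window lies at chr8:83290098-83290397 on the plus strand, with 9 of its 15 CpGs tested. The Cebpb window lies at chr2:167688665-167688964 on the plus strand, with 33 of 50 tested. The Prdm16 window lies at chr4:154636824-154637123 on the minus strand, with 23 of 24 tested.
Ucp1: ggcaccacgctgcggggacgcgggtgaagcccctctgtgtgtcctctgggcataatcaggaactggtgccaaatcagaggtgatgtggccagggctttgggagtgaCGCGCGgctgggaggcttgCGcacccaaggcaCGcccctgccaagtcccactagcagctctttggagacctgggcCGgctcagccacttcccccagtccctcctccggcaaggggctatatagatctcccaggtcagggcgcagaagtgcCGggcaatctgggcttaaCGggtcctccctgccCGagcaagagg
Cebpb: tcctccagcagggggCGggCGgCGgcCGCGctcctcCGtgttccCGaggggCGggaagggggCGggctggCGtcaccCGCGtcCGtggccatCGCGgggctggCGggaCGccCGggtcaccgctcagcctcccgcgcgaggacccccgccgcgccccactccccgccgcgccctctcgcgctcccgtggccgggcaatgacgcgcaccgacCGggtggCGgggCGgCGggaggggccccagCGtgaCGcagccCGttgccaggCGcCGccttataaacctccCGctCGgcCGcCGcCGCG
Prdm16: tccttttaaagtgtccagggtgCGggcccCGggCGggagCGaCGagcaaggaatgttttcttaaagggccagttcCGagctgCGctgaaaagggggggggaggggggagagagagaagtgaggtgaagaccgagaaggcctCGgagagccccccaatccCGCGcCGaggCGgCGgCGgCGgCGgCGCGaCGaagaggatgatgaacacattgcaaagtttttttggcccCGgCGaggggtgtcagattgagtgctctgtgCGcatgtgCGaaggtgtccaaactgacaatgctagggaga

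Both strands of the promoter windows of 5 of the genes were searched for 4 short motifs. The short cAMP response element motif TGACG occurs in 20.8% of 32851 mouse promoter windows. It was found once in the Ucp1 window, from base -147 to -143 relative to the start, and 3 times in the Cebpb window. The second of the 2 Ebf1 windows held 1 match, from base 22 to 26. The tested CpG in that Ebf1 match, at base 22, was methylated in 9.25% of 400 BPA reads and 8.86% of 361 control reads in adipose tissue. The Ucp1 match holds 1 tested CpG, at -144, which was methylated in 0% of 56 BPA reads and 0% of 39 control reads in adipose tissue. The C/EBP core TTGCNNAA, found in 10.8% of windows, matched only the first of the 2 Zfp423 windows, and the palindromic EBF consensus, found in 0.904%, matched none. The MspI site CCGG, found in 52.8% of windows, occurred 3 times each for Ucp1 and Cebpb and 2 times for Prdm16. It also occurred 7 times in the first Zfp423 window and 1 time in the second Ebf1 window. Some TGACG matches adjoin further CpGs, and overlaps between motifs were not removed.

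The 7 genes fell into 2 classes by level. Over sites tested in all 3 tissues, the long genes Prdm16, Zfp423, Ebf1 and Ebf2 had intermediate mean levels, while the compact genes Ucp1, Cebpb and Cebpd were low. The classes also differ in where the measured sites lie. In adipose tissue all 21 Ucp1 sites and 166 of 211 Cebpb sites lay within 1 kb of a start site. For Prdm16 these were 95 of 952 and for Zfp423 62 of 597. The Ucp1 mean thus describes only the start of that gene. For Prdm16, the mean over 750 sites was 49.5% in the BPA pool and 50.4% in the control pool of adipose tissue, 56.7% and 56.8% in hypothalamus, and 57.3% and 57.4% in liver. Both adipose pools thus lay below the 4 other pools.

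The mean over 463 Zfp423 sites was 46.3% in BPA and 46.7% in control adipose tissue, 46.7% and 46.6% in hypothalamus, and 42.6% and 42.4% in liver. For Ebf1, over 156 sites, the pairs were 48.0% and 48.7%, 50.1% and 50.6%, and 47.0% and 46.9%, in the same order of pools and tissues. For Ebf2, over 244 sites, they were 38.3% and 38.3%, 39.3% and 38.5%, and 34.3% and 34.1%. Liver was the lowest tissue for these 3 genes.

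Cebpb averaged 8.34% in BPA and 7.71% in control adipose tissue, 12.1% and 11.7% in hypothalamus, and 4.73% and 4.49% in liver over 157 sites. Ucp1, over 14 sites, had 10.4% and 10.3%, 17.5% and 8.21%, and 7.74% and 6.39% in the same order. Cebpd, over 58 sites, stayed at or under 1.27% in each pool. The BPA and control pools of a tissue lay within 1 percentage point of each other for 6 of the 7 genes, and Ucp1 was the exception.

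**Figure D1:**
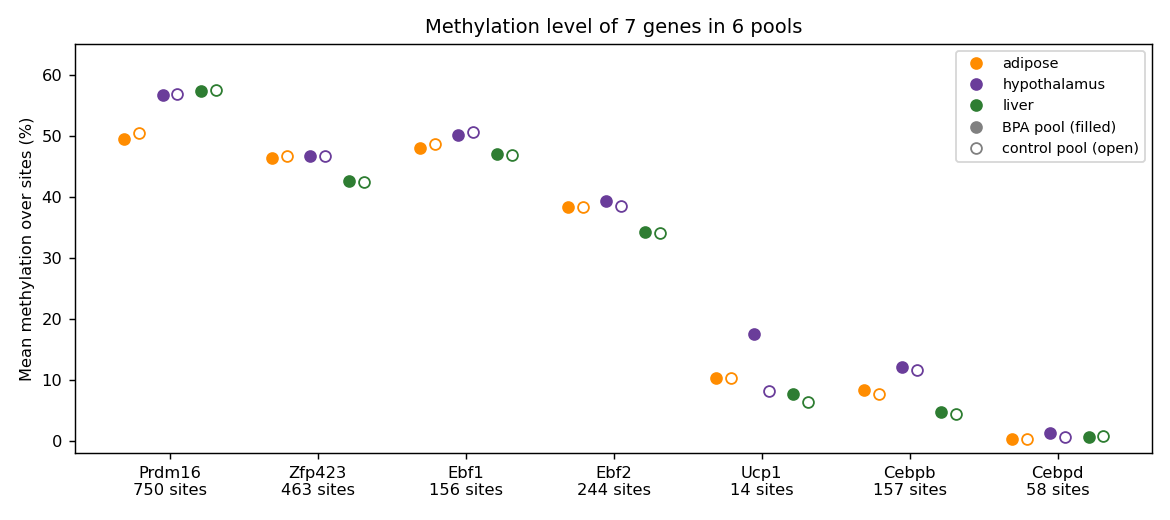
Mean methylation (%, vertical axis) over the CpG sites tested in all 3 tissues, for each gene (horizontal axis), with the BPA pool (filled) left of the control pool (open) in each tissue (colour). Prdm16 lay lowest in adipose tissue, and only the hypothalamic pools of Ucp1 stand visibly apart, at 17.5% and 8.21%.

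Levels differed by position within a gene. Within 1 kb of a start site, adipose Prdm16 sites averaged 0.979% in the BPA pool and 0.900% in the control pool over 95 sites. Beyond 5 kb they averaged 61.8% and 62.0% over 753 sites. Zfp423 had the same pattern, with 0.689% in BPA and 0.661% in control over 62 sites near a start and 61.4% and 62.4% over 449 distant sites. Ebf1 has 2 start sites, and its 46 sites within 1 kb of either averaged 5.34% in BPA and 5.73% in control. Just after the second start, 21 neighbouring sites at chr11:44620245-44620603 averaged 11.2% and 12.1%. Around the first start Ebf1 was barer. There 5 sites at chr11:44617496-44617639 averaged 1.33% and 1.86%, and 15 sites at chr11:44618401-44618471 averaged 0.208% and 0%. Of all adipose sites of the 7 genes, 39.8% had a control level between 20% and 80%, against 22.2% of all sites tested, and the share was 49.6% in Prdm16.

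Many more sites of these genes were called between tissues than between treatments. A site was called when an adjusted p from Fisher's exact test with Benjamini-Hochberg adjustment over all sites was under 0.05 and the pools differed by at least 5 percentage points. Between the adipose and hypothalamic control pools, 521 of 1979 sites of the 7 genes were called (26.3%), where 12.9% of all sites were. Of these, 205 were higher and 316 lower in adipose tissue, where 3.79% and 9.08% of all sites were. Between adipose tissue and liver, 740 of 2056 were called (36.0%), where 16.5% of all sites were, with 383 higher and 357 lower in adipose tissue, where 8.06% and 8.42% of all sites were. Between hypothalamus and liver, 519 of 1883 were called (27.6%), where 16.9% of all sites were, with 307 higher and 212 lower in hypothalamus, where 11.2% and 5.72% of all sites were. These tests compare 1 pool with another and do not measure differences between animals.

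The balance of directions differed by gene. Prdm16 had 49 called sites higher and 181 lower in adipose tissue than in hypothalamus, together 28.6% of its 803 sites. Of all called sites in that comparison, 29.4% were higher in adipose tissue. Zfp423 had 72 higher and 52 lower there (25.7% of 483 sites), Ebf1 33 and 35 (38.0% of 179) and Ebf2 51 and 32 (31.1% of 267). Against liver Prdm16 had 75 higher and 234 lower, together 38.3% of 807, where 48.9% of all called sites were higher in adipose tissue. Zfp423 had 144 higher and 64 lower in adipose tissue than in liver (40.1% of 519 sites). Ebf2 had 94 higher and 26 lower there (42.1% of 285). All called Cebpb sites ran one way in each comparison. There were 0 higher and 16 lower in adipose tissue than in hypothalamus (9.14% of 175 sites). Against liver, 20 were higher and 0 lower in adipose tissue (10.6% of 188), and 19 higher and 0 lower in hypothalamus (12.0% of 158). Each of these Cebpb shares was below that of all sites, at 12.9%, 16.5% and 16.9% in the same order. Ucp1 and Cebpd had 0 called sites in each of the 3 comparisons of control pools by Fisher's exact test. Only 14 to 21 Ucp1 sites and 58 Cebpd sites entered each of these. The BPA pools, compared in the same way, gave 1 called Ucp1 site and 1 called Cebpd site, both lower in adipose tissue than in hypothalamus, and 1 called Cebpd site that was higher in hypothalamus than in liver.

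Neighbouring sites were also described as runs, defined as at least 3 sites no more than 100 bp apart. Of 198 such runs, 82 spanned at least 20 percentage points between the 3 control pools, and the lowest pool was adipose in 31, hypothalamus in 22 and liver in 29. The promoter window of Cebpb averaged 1.31% or less in each pool, while its flanks were methylated. In the run at chr2:167687899-167688034, about 1 kb before the start, 4 sites averaged 66.4% in BPA and 59.4% in control adipose tissue. The same sites averaged 75.8% and 80.2% in hypothalamus and 27.8% and 18.3% in liver. In the run at chr2:167692380-167692536, beyond the 3′ end and inside the noncoding gene A530013C23Rik, 9 sites averaged 60.0% and 51.3% in adipose tissue, 85.5% and 83.5% in hypothalamus, and 28.1% and 23.1% in liver. Both flanks thus ranked hypothalamus over adipose tissue over liver in each treatment.

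Ebf1 held runs with opposite orders inside the gene body. At chr11:44685946-44686191, 12 sites averaged 8.60% in BPA and 15.0% in control adipose tissue, 52.6% and 50.0% in hypothalamus, and 66.5% and 62.0% in liver. All 12 were called between adipose tissue and each other tissue, and 1 was called between hypothalamus and liver. At chr11:44833399-44833564, 10 sites were instead high in adipose tissue, at 60.5% in BPA and 55.6% in control, against 22.5% and 22.2% in hypothalamus and 17.3% and 18.8% in liver. At chr11:44893669-44893699, 3 sites were low in liver alone, at 12.6% and 11.1%, with 63.8% and 68.6% in adipose tissue and 88.9% and 84.1% in hypothalamus.

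Next to the 3′ end of Zfp423, at chr8:87660897-87661290, 17 sites averaged 36.0% in BPA and 37.2% in control adipose tissue, 64.2% and 62.5% in hypothalamus, and 4.49% and 3.15% in liver. All 17 were called between liver and each other tissue. In Ebf2, 8 sites at chr14:67279489-67279749 were high in hypothalamus, at 81.3% in BPA and 82.0% in control, with 40.5% and 45.1% in adipose tissue and 46.4% and 42.0% in liver. In Prdm16, 4 sites at chr4:154400530-154400660 averaged 46.0% and 43.5% in adipose tissue, 76.9% and 79.6% in hypothalamus, and 23.5% and 25.7% in liver. The 3 sites at chr4:154424861-154424898 were lowest in adipose tissue, with 15.7% and 17.0%, against 35.3% and 32.9% in hypothalamus and 62.4% and 63.6% in liver. In the Zfp423 run and both Prdm16 runs the BPA and control pools of each tissue lay within 3 percentage points of each other.

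**Figure D2:**
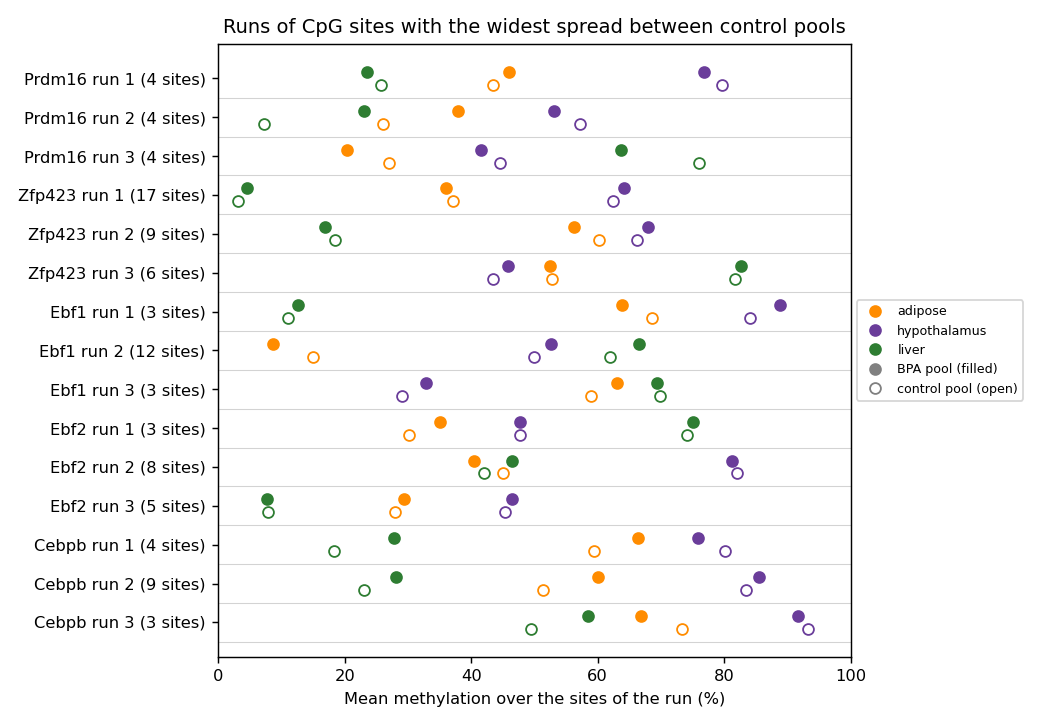
Mean methylation (%, horizontal axis) in the 3 runs of neighbouring CpG sites with the widest span between control pools for each of 5 genes (rows), with the BPA pool filled and drawn above the open control pool, and tissues in colour. The runs were picked for that span, so it is a description. In Zfp423 run 1 liver lay at 4.49% and 3.15%, against 36.0% and 37.2% in adipose tissue.

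Marker genes gave a mixed check of the tissue labels by mean level in the control pools. Hepatocyte genes were lowest in liver for 5 of 6 genes measured, and adipocyte genes were lowest in adipose tissue for 5 of 7. Neuron genes were lowest in hypothalamus for 3 of 7 and in adipose tissue for 3 others. Astrocyte genes were lowest in hypothalamus for 1 of 4 and in adipose tissue for 3, and oligodendrocyte genes in hypothalamus for 1 of 3, so the brain lists did not single out hypothalamus. Genes of endothelium, leukocytes, and epididymis and testis were lowest in adipose tissue for 4 of 5, 3 of 6 and 3 of 4 genes. Between the treatments, the median of the adipocyte genes was 61.3% in BPA and 56.9% in control adipose tissue. Both medians are the levels of Lep, and the other 6 adipocyte genes differed less, such as Plin1 at 64.1% and 61.6% and Adipoq at 83.9% and 84.5%. The median of the hepatocyte genes in adipose tissue was 73.1% and 71.4%, and 5 of the 6 were higher in BPA, among them Ttr at 68.2% and 60.4% and Serpina1a at 78.3% and 70.8%. For endothelial genes it was 55.4% and 57.3%, and for leukocyte genes 60.0% and 61.1%. The part of these shifts in the differences between BPA and control was not tested.

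Between the BPA and control pools of adipose tissue, 20 of the 2439 sites were called, which is 0.820%, where 0.535% of all sites were. Of the 20, 11 were higher and 9 lower in BPA, in 5 of the genes, where 0.252% and 0.283% of all sites were. Prdm16 had 4 higher and 6 lower of 952 sites, Ebf2 4 higher and 1 lower of 344, and Zfp423 1 higher and 2 lower of 597. Ebf1 had 1 higher of 247 and Cebpb 1 higher of 211. Ucp1 and Cebpd had none of 21 and none of 67, by Fisher's exact test with 0 and 1 site at an unadjusted p under 0.05. At that unadjusted threshold, 324 sites of the 7 genes passed (13.3%), where 10.1% of all sites did. The called sites differed by 8.85 to 49.1 percentage points, with a median of 18.4. In 15 of the 20 the methylation level over both pools lay between 20% and 80%, and none of the 15 with a known start site lay within 1 kb of it.

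The spread between the adipose pools was wider than counting error. The squared difference between the pools averaged 2.02 times the counting error in adipose tissue, 1.19 times in hypothalamus and 1.25 times in liver. These averages cover only sites with enough methylated and unmethylated reads expected, which were 1009384, 689039 and 877276 sites in the same order. When the Fisher p was scaled by this excess, none of the 20 calls held, and 28 sites of the whole adipose table did. The adipose calls are therefore differences between 2 sets of pooled reads, and their spread between animals cannot be measured here.

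In Prdm16, the site with the smallest p, at chr4 position 154425645 in the gene body, was methylated in 36.4% of 462 BPA reads and 22.9% of 511 control reads. That was a difference of 13.5 percentage points (7.74 to 19.1), with an adjusted p of 0.00536 by Fisher's exact test. Its run of 13 sites averaged 36.7% in BPA and 33.8% in control, with 10 sites higher in BPA and 2 lower. The largest Prdm16 difference was at 154446022, with 46.3% of 80 BPA reads and 7.50% of 40 control reads methylated. This site rose by 38.8 points (22.5 to 50.7) in BPA.

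Neighbouring calls in the same direction were seen once in Prdm16. At 154471717, 19.7% of 122 BPA reads and 46.5% of 86 control reads were methylated, and at 154471773, 11.8% of 85 BPA reads and 41.7% of 60 control reads. With the adjacent site at 154471682, the 3 sites averaged 16.0% in BPA and 38.2% in control. This was the widest difference among adipose runs of the 7 genes with at least 20 reads a site in both pools. A thinner Prdm16 run of 3 sites, at 154632158 to 154632166, had 57.6% in BPA and 29.9% in control at as few as 11 reads. Sites so close can share reads and are not independent.

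The other 2 lower sites with a start nearby lay around the Prdm16 promoter. At 154635266, 1607 bases into the gene and inside the overlapping 5930403L14Rik, 0% of 118 BPA reads and 11.6% of 95 control reads were methylated. The upper limit of the BPA level was 3.08%. At 154641327, upstream at base -4454 from the start and inside Prdm16os, the noncoding gene beside Prdm16, 5.58% of 197 BPA reads and 18.2% of 176 control reads were methylated. The run around it held 35 sites over 903 bp, of which 31 were lower and 4 higher in BPA, with a mean of 12.2% in BPA and 16.2% in control. Over all 104 sites between 1 and 5 kb from the Prdm16 start, the mean was 12.9% in BPA and 16.3% in control adipose tissue. In the same bin it was 16.2% and 14.8% in hypothalamus and 18.4% and 17.3% in liver. The promoter window shown above stayed at 0.997% in BPA and 1.02% in control adipose tissue over its 23 tested CpGs.

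The 4 remaining Prdm16 calls lay singly in the gene body. At 154362547 the level was 80.0% in BPA and 61.8% in control, and at 154500859 it was 89.0% and 67.5%. Lower in BPA were 154363422, with 62.5% of 48 BPA reads and 92.6% of 54 control reads, and 154528399, with 52.5% and 77.3%. The site at 154528399 had an adjusted p of 0.0498 by Fisher's exact test, just under the threshold. The higher site at 154362547 and the lower site at 154363422 lay less than 1 kb apart.

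Zfp423 had its strongest difference at chr8 position 87783639 in the gene body, where 66.9% of 236 BPA reads and 84.0% of 263 control reads were methylated. The level fell by 17.1 percentage points in BPA (-24.4 to -9.57, adjusted Fisher's exact p 0.00843). Of the 8 sites in its run, 5 were higher and 3 lower in BPA, and the run averaged 61.6% and 59.1%. At 87768905 the level was instead higher, at 80.1% of 161 BPA reads and 57.6% of 125 control reads. At 87943864, 3.95% of 304 BPA reads and 12.8% of 266 control reads were methylated. The 29 sites around it averaged 21.0% in BPA and 26.5% in control, with 21 lower and 8 higher in BPA.

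Ebf2 had most of its calls higher in BPA, but its other sites showed no such balance. At an unadjusted Fisher p under 0.05, 22 Ebf2 sites were higher and 23 lower in BPA. Together these are 13.1% of its 344 sites, where 10.1% of all sites passed. At chr14 position 67230230, below the lower-coordinate end of the gene, 36.2% of 301 BPA reads and 19.3% of 228 control reads were methylated, a rise of 16.9 points (9.25 to 24.1, adjusted Fisher's exact p 0.0128). All 7 sites of its run were higher in BPA, with means of 27.1% and 20.7%. The largest difference of all 20 calls was at 67237177, with 56.0% of only 25 BPA reads and 6.90% of 29 control reads methylated, and an interval from 24.9 to 67.1 points. Another pair of calls lay at 67362257, with 87.1% in BPA and 72.6% in control, and at 67362263, with 80.8% and 66.1%, only a few bases away. The site at 67357434 was lower, at 50.9% of 279 BPA reads and 67.0% of 285 control reads. Its 8 neighbours in the run at chr14:67357344-67357536, that site included, were all lower in BPA, with means of 45.9% and 55.3%. The last 3 sites also lie inside the overlapping gene 4930438E09Rik.

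The 1 call in Ebf1 lay near its 3′ end, at chr11 position 45007148, with 93.0% of 43 BPA reads and 55.6% of 36 control reads methylated (adjusted Fisher's exact p 0.0350). Its run of 3 sites averaged 85.3% in BPA and 73.5% in control, with 2 sites higher and 1 lower. Wider differences were seen in Ebf1 runs that held no called site. Over 4 sites at chr11:44686441-44686531 the mean was 36.0% in BPA and 55.6% in control, all 4 lower, at 37 or more reads a site in BPA and 49 or more in control. This run lies just beyond the adipose-low run described above. At lower depth, down to 19 reads in BPA and 10 in control, 8 sites at chr11:44741134-44741228 averaged 56.0% in BPA and 33.6% in control, with 7 higher and 1 lower.

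The 1 call in Cebpb lay at chr2 position 167691634, 2719 bases after the start, past the end of the gene and inside A530013C23Rik. There 63.3% of 278 BPA reads and 44.8% of 230 control reads were methylated, a rise of 18.5 points (9.84 to 26.8, adjusted Fisher's exact p 0.0179). At an unadjusted p under 0.05, 10 Cebpb sites were higher and 1 was lower in BPA, which together are 5.21% of its 211 sites, below the 10.1% of all sites. The Cebpb promoter window stayed at 0.478% in BPA and 0.308% in control adipose tissue.

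**Figure D3:**
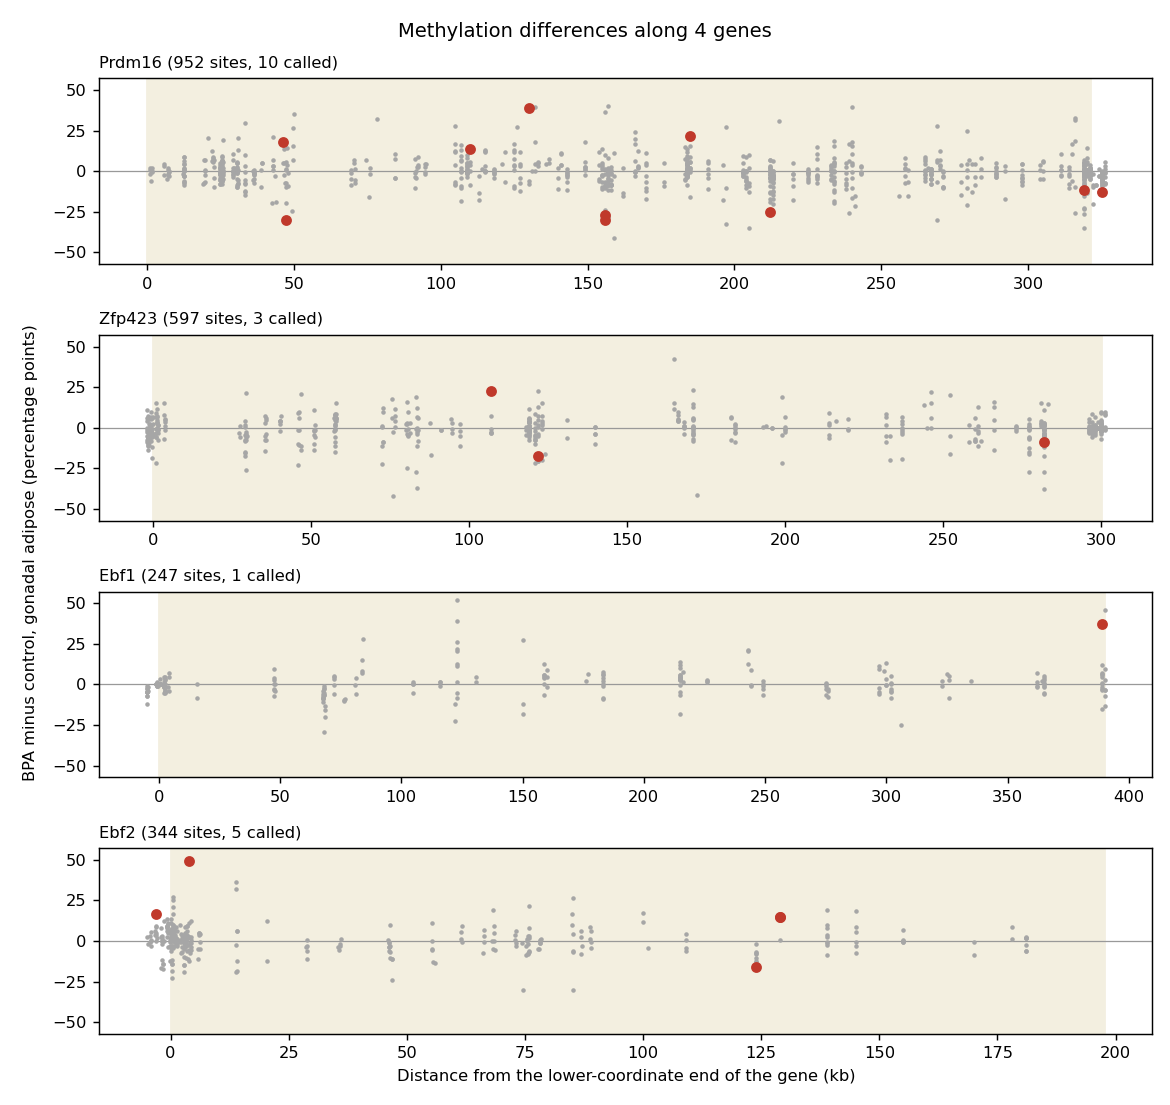
Difference in methylation in adipose tissue, BPA minus control (percentage points, vertical axis), against distance from the lower-coordinate end of each gene (kb, horizontal axis), with called sites in red, other tested sites in grey and the gene body shaded. The 19 called sites of these 4 genes lie on both sides of 0, and 10 of them are Prdm16 sites.

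Ucp1 and Cebpd did not differ detectably in adipose tissue at this depth. The Ucp1 site with the smallest p, at chr8 position 83290223 and 125 bases before the start, had 14.3% of 56 BPA reads and 4.00% of 50 control reads methylated, a difference of 10.3 points (-1.40 to 22.1, unadjusted Fisher's exact p 0.0983). Of the 21 Ucp1 sites, 9 were higher and 10 lower in BPA. The promoter window shown above averaged 2.39% in BPA and 1.21% in control adipose tissue. The level was higher inside the gene, where 4 sites between 211 and 294 bases after the start averaged 28.6% and 29.7%. For Cebpd the leading site, at chr16 position 15887531, had 1.94% of 310 BPA reads and 0% of 252 control reads methylated (unadjusted Fisher's exact p 0.0354).

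Summed over all reads of a gene, the adipose difference, BPA minus control, was -0.637 points for Prdm16, 0.251 for Zfp423, -0.873 for Ebf1 and -0.0435 for Ebf2. It was 1.66 points for Ucp1, 1.23 for Cebpb and 0.0143 for Cebpd. With each site weighted equally the direction turned for 4 genes, to -0.715 points for Zfp423, 0.684 for Ebf1, 0.396 for Ebf2 and -0.261 for Cebpd. Equal weights gave -0.500 for Prdm16, 0.0498 for Ucp1 and 0.0914 for Cebpb. The median of the 7 differences was 0.0143 points in adipose tissue, -0.947 in hypothalamus and 0.892 in liver by reads, and 0.0498, 0.302 and 0.168 points with equal weights. The hypothalamic direction thus also turned. None of these gene-wide values has a test, since a read counts at each CpG that it covers.

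In hypothalamus none of the 1950 sites was called by Fisher's exact test, where 0.00599% of all sites were. At an unadjusted p under 0.05 there were 74, or 3.79%, where 3.41% of all sites passed. The authors' deposited tables also give a credible difference, a conservative bound, which reached 5 points at 24 hypothalamic sites (1.23%), where it did at 0.858% of all sites. The smallest adjusted Fisher's exact p was 0.784, at Prdm16 position 154425484, with 54.9% of 357 BPA reads and 67.9% of 321 control reads methylated. In liver none of 2033 sites was called, where 0.0259% of all were. There 88 sites, or 4.33%, had an unadjusted Fisher p under 0.05, where 4.21% of all sites passed, and 20 (0.984%) had a credible difference of 5 points, where 0.995% of all sites did.

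The nearest to a call in liver were in Ebf2 and Cebpb. At Ebf2 position 67279363, 58.4% of 231 BPA reads and 39.7% of 224 control reads were methylated, a difference of 18.7 points (9.54 to 27.4, adjusted Fisher's exact p 0.138). At Cebpb position 167691787, 40.7% of 194 BPA reads and 23.3% of 253 control reads were methylated, a difference of 17.4 points (8.70 to 25.9, adjusted Fisher's exact p 0.147). The Cebpb site lies 2872 bases after the start, close to the site called in adipose tissue. At that called site, 167691634, liver was instead lower in BPA, at 36.1% against 46.8% in control.

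Hypothalamic Ucp1 showed the widest gap between treatments in a gene mean, but at very low depth. Its 14 sites averaged 17.5% in BPA and 8.21% in control, with 10 sites higher and 3 lower in BPA. The median depth was 16.5 reads in BPA and 30.5 in control, and no Ucp1 site had an unadjusted Fisher p under 0.05. The leading site, 211 bases after the start, had 34.5% of 29 BPA reads and 11.1% of 18 control reads methylated, a difference of 23.4 points (-2.74 to 43.2, Fisher's exact p 0.0952). Over the 7 promoter sites the mean was 14.1% in BPA and 4.20% in control, and the 4 sites from 211 to 294 bases averaged 33.1% and 16.6%. In adipose tissue and liver the pools overlapped along the gene.

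Low levels in hypothalamus moved together across the table. Over all 168239 sites with under 1% methylation in each pool of the other 2 tissues, 0.868% of hypothalamic reads were methylated in BPA and 0.459% in control. Over the 113 such sites of the 7 genes the levels were 1.05% and 0.484%. The hypothalamic promoter means of Cebpb, at 1.31% and 0.326%, and the 58 Cebpd sites, at 1.27% and 0.645%, differed in that direction too. The part of the table-wide shift in the hypothalamic values of Cebpb, Cebpd and Ucp1 was not tested. In adipose tissue, sites chosen in the same way were at 0.460% in BPA and 0.459% in control, and in liver at 0.578% and 0.755%, the opposite direction to hypothalamus.

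**Figure D4:**
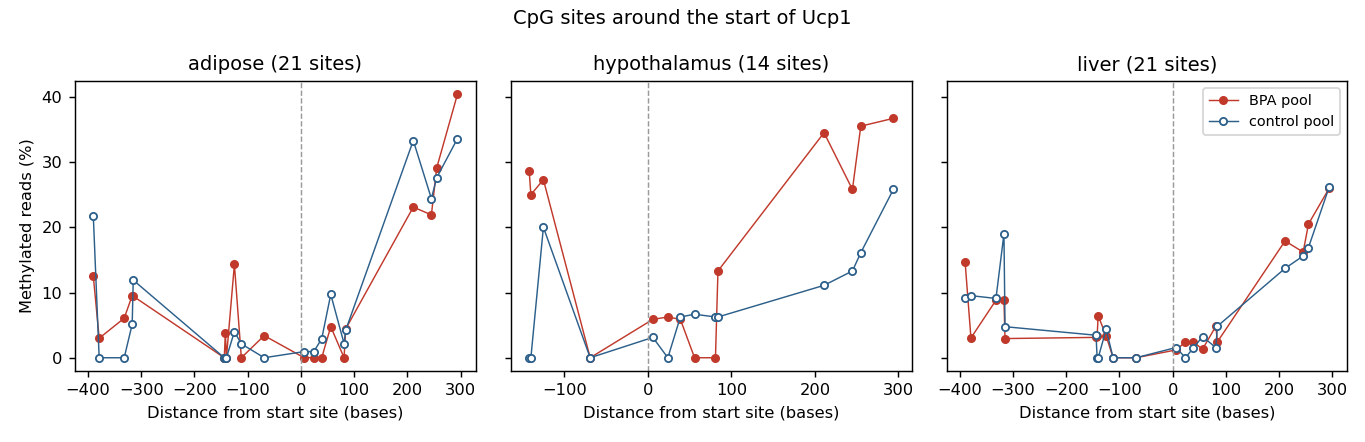
Methylated reads (%, vertical axis) at each Ucp1 site against its distance from the start site (bases, horizontal axis, dashed line at 0), with the BPA pool filled and the control pool open, per tissue. In adipose tissue and liver the levels were low near the start and higher from 211 to 294 bases after it. In hypothalamus the BPA level also reached 28.6% upstream of the start, and the points rest on 10 to 33 reads each.

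At the sites called in adipose tissue, the other tissues had no common direction. Of the 20 sites, 18 were tested in hypothalamus, where 9 had the same direction and 9 the opposite direction or no difference. There 0 had an unadjusted Fisher p under 0.05, and some sites rested on few reads, down to 14 in a pool. In liver 16 were tested, of which 7 had the same direction and 9 the opposite one. Only 2 had an unadjusted Fisher p under 0.05 there, both in the opposite direction. These were the Zfp423 site at 87783639, with 80.5% in BPA and 68.7% in control liver, and the Cebpb site at 167691634, with 36.1% and 46.8%. A Wald test of the difference in log odds ratios between adipose tissue and liver, with Benjamini-Hochberg adjustment over all sites, gave an adjusted p of 0.00136 for the Zfp423 site and 0.0141 for the Cebpb site. These were 2 of 2025 sites of the 7 genes, and 0.0493% of all sites passed. With the variance scaled by the excess over counting error, the adjusted Wald p was 0.300 for Zfp423 and 1.00 for Cebpb. Neither other pair of tissues had a passing site among the 7 genes, where 0.0266% of all sites passed for adipose tissue against hypothalamus and 0.00375% for hypothalamus against liver. By unadjusted Wald p under 0.05, 155 of 1948 sites (7.96%) passed for adipose tissue against hypothalamus, where 5.39% of all did. For adipose tissue against liver 163 of 2025 (8.05%) passed, where 6.54% of all did, and for hypothalamus against liver 78 of 1843 (4.23%), where 3.66% of all did.

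**Figure D5:**
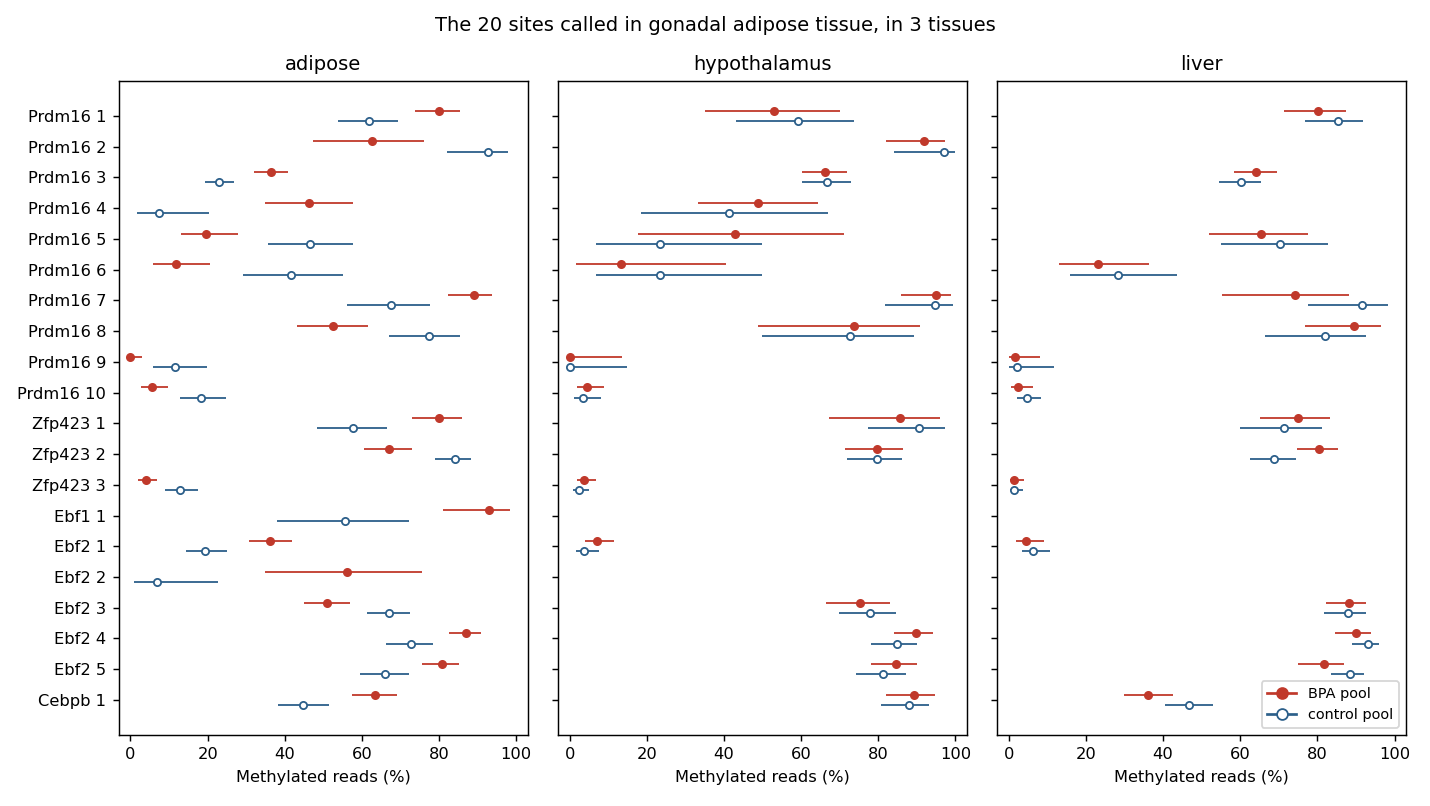
Methylated reads (%, horizontal axis) with 95% Clopper-Pearson intervals at the 20 sites called in adipose tissue (rows, numbered along each gene from the lower coordinate), BPA in red above control in blue, in the 3 tissues. The pools separate in adipose tissue, where the sites were called. In liver 9 of the 16 tested rows show the reverse order, among them Zfp423 2 and Cebpb 1.

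Of 44 other genes of adipogenesis and thermogenesis, 43 had tested sites. In adipose tissue 27 of their 7675 sites were called, or 0.352%, where 0.535% of all sites were, with 14 higher and 13 lower in BPA. They fell in 18 genes, 8 with a higher site and 11 with a lower one. In hypothalamus 0 of 6420 and in liver 0 of 6589 were called by Fisher's exact test, where 0.00599% and 0.0259% of all sites were. Higher in BPA were 3 sites each in Tle3, a corepressor that opposes Prdm16 in fat, and Ctbp2, a corepressor that binds Prdm16. The leading Tle3 site was at 55.2% of 250 BPA reads and 30.8% of 172 control reads (adjusted Fisher's exact p 0.00217), and the leading Ctbp2 site at 98.0% of 50 and 65.5% of 58. Gata3, a factor that restrains adipocyte differentiation, and Pdgfra, a receptor of fat progenitors, had 2 higher sites each, led by 78.9% in BPA and 62.2% in control and by 100% and 91.8%.

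Lower in BPA were 2 sites each in Mecom, a close relative of Prdm16, and Bmp7, a signal that promotes brown fat formation. The leading Mecom site was at 53.1% of 288 BPA reads and 70.9% of 306 control reads (adjusted Fisher's exact p 0.00871). The leading Bmp7 site was at 30.3% of 142 BPA reads and 55.5% of 119 control reads. Cebpa, which drives terminal adipocyte differentiation, had 1 lower site at 62.0% of 71 BPA reads and 100% of 28 control reads. Ppargc1b, a coactivator of mitochondrial genes, had 1 at 91.4% and 99.5%.

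The genes most like each member over the 6 pools were ranked by the largest absolute difference in mean level in any pool, among 27386 genes. Rbm20 stayed within 0.798 points of Prdm16 and BC052040 within 1.28. Gm15155 stayed within 0.417 points of Zfp423 and Pcdha1 within 0.525. For Ebf1 the nearest was 4930522L14Rik, within 0.602 points, followed by Stk32b, within 0.649. For Ebf2 the nearest were Gm17968, within 0.850 points, and Pcmtd1, within 0.883. For Cebpb they were Gm41033, within 0.955, and Zfyve21, within 0.970, and for Cebpd Parp6 and the overlapping Gm51709, both within 0.169. The nearest to Ucp1, Tomt and Gm12796, differed by up to 3.57 and 3.80 points.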

How the data were processed

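Reduced representation bisulfite libraries of 18 samples, from 100 ng of DNA each, were aligned by the submitters with BSMAP to GRCm38 (mm10), per the submitters' processing notes. Per the file headers, the deposited tables give, for each CpG and pool, a count of covering reads, a methylation fraction, difference scores (nominal and credible) and the p-value of a two-sided Fisher's exact test. The deposited fractions were turned into methylated reads, and recomputed p-values matched within 0.01 on the log10 scale at 99.8% or more of 5000 sites per table. The design foresaw a model over samples, which pools do not allow. Fisher p-values were adjusted by Benjamini-Hochberg over the sites of nuclear chromosomes that had 10 or more reads in both pools, with numpy 2.4.6, scipy 1.17.1, pandas 2.3.3 and numba 0.67.0, after tests on simulated data. Levels have Clopper-Pearson and differences Newcombe intervals. The Wald test added 0.5 to each cell.

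Genes and promoter sequences came from RefSeq tables of GRCm38.p6, and 5 of the 7 genes had a promoter entry. All 7 genes were named, with each called site or else the site of smallest p, and per direction the 4 pathway genes with most called sites, ties broken by the smallest p. The genes, lists and rules were chosen with earlier results of these data known. The runs named, between treatments or between tissues, and the sites at under 1% were picked after seeing values. Coverage minimum, difference minimum, scaling, credible difference and gene-body sites were tried as alternatives.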

Additional observations from a re-analysis of the deposited data

Results flagged for a closer look

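The difference between BPA and control differed between adipose tissue and liver at 2 sites of the 7 genes by the adjusted Wald test. At Zfp423 position 87783639 the difference was -17.1 percentage points in adipose tissue and 11.8 in liver, so that the adipose value was -28.9 points from that of liver. At Cebpb position 167691634 it was 18.5 points in adipose tissue and -10.7 in liver, which are 29.2 points apart. The depth was 230 reads or more in each of these pools. Neither difference passed when the variance was scaled by the excess over counting error.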

How the results depend on the processing

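The 20 adipose calls became 0 when p was scaled by the excess over counting error, and 125 (5.13%, against 2.99% of all sites) by the authors' credible difference of at least 5 points. That rule gave 24 in hypothalamus (1.23% against 0.858%) and 20 in liver (0.984% against 0.995%), where there were 0. Without the deepest 0.1% of sites 19 were called, with Prdm16 154528399 at an adjusted p of 0.0511. Under the same scaling the 27 calls in other pathway genes became 0, as did the 2 Wald calls, alternatives chosen after seeing the data. The median gene difference in hypothalamus, -0.947 points, became 0.302 with each site weighted equally and -0.654 in gene bodies alone. In liver, 0.892 became 0.168 with equal weights. Counts between tissues stayed within 1.5 times under a 20-read minimum, a 10-point minimum and the BPA pools. No paired analysis was possible because the tables hold pools with no value per sample. For that reason leaving out a replicate and the replicate block were not run. Depth limits Ucp1 in hypothalamus most.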
